A study of Sus scrofa with 6 samples.

Results

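Some long noncoding RNAs (lncRNAs) are assembled as more than 1 isoform of the same locus, and these loci are described here in 2 skeletal muscles of the pig. The members are the intergenic transcripts (class code u, outside every annotated gene) whose gene ID stands on at least 2 rows of the deposited lncRNA table. Transcripts on chromosome X and 1 further transcript were not included. They are 118 of the 4046 transcripts, or 2.92% of the table, and they lie in 51 loci. Another 17 gene IDs on several rows hold no member. The rule rests on class, position and the number of rows, apart from the 1 further transcript, which it leaves out by name. It uses no expression value, but it was set with earlier results of these data known.

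The libraries came from female Qingyu pigs (Qinyu in the labels), all 178 days old, the inflection point of the breed's growth curve. Longissimus dorsi muscle (LDM), the white back muscle that works mainly by glycolysis, gave 3 libraries, and psoas major muscle (PMM), the red loin muscle that works mainly by oxidation, gave another 3. No treatment is named, so the muscle is the only factor that the labels give. The paper took both muscles from the same group of pigs and picked samples at random for sequencing. It does not say whether the LDM and PMM libraries came from the same animals, so these may be paired. Both muscles are mixtures of fibres with fat, vessel, blood and connective tissue cells. In whole muscle, fewer cells that express a transcript and less of its RNA per cell cannot be told apart.

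An lncRNA gene, like a coding gene, can give several RNAs through alternative promoters, splice sites and polyadenylation sites. Which isoform a tissue uses can change while the output of the locus stays the same. Among the myosin, troponin and tropomyosin transcripts of fast and slow fibres, different genes or different exons serve the 2 fibre types. Where the genes differ, it is the output of each locus that changes. A short and a long isoform of an lncRNA can carry different protein or microRNA binding sites. For these reasons each locus was read in both ways, by its summed FPKM (fragments per kilobase of exon and per unit of sequencing depth, a level corrected for length and depth) and by each isoform's share of that sum in a library. The summed FPKM answers whether the muscles differed in the output of the locus, and the share answers whether they differed in the isoform used.

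The loci were small families of spliced RNAs. Of the 51 loci, 39 held 2 rows, 8 held 3, 3 held 4, and MSTRG.18919 on chromosome 9 held 7. In 3 loci a row of another class belongs to the family, which counted in the sum but not as a member. These rows were MSTRG.10257.2, which shares a junction with CCL25 (a chemokine gene), MSTRG.1350.1, opposite PSMA3 (a proteasome subunit gene), and MSTRG.17315.1, opposite STON2 (an endocytic adaptor gene). Among the members, 59 had 2 exons, 30 had 3, 14 had 4, and 9 had 5 to 7, while 6 had a single exon. Spliced members thus numbered 112, or 94.9%, against 11.5% of all rows, and they were 24.0% of the 466 spliced transcripts in the table. No member carried a gene name in the table.

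Member length ran from 262 to 33086 bases with a median of 1620.5 bases, and the loci spanned 620 to 182009 bases with a median of 12718 bases. They were spread over 18 chromosomes, with the most on chromosome 4 (6 loci), and 28 lay on the plus and 23 on the minus strand. Isoforms of a locus differed in length, and in many loci also in their ends or in the number of exons. Exon positions were not compared. With a tolerance of 50 bases, the rows of 12 loci shared both ends, those of 19 loci shared the 5′ end, those of 9 loci the 3′ end, and those of 11 loci neither. In 24 loci the rows had the same number of exons. In 6 loci an unspliced row lay beside a spliced one. In 3 loci (MSTRG.9117, MSTRG.17304 and MSTRG.18919) some rows did not overlap each other at all, so these families are chained through longer rows or through isoforms that are not analysed here. The numbering of 9 loci ran past the number of their rows. All positions are those of the authors' table. Sscrofa11.1 is the build named in the submitters' processing notes, but on 18 of 19 chromosomes some rows lay beyond the last gene annotated there, so which build the positions follow is not settled.

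Depth was similar between the muscles. The ratio of coverage to FPKM gave 7.94, 7.24 and 8.78 gigabases behind the FPKM of LDM replicates 1 to 3, and 7.59, 7.52 and 7.86 gigabases behind those of PMM replicates 1 to 3. LDM replicate 2 stood apart over the whole table, with 2855 transcripts above 0 FPKM against 2107 to 2464 in the other 5 libraries. Members did not share this excess. They were above 0 in 100, 106 and 106 cases in LDM and in 107, 106 and 104 cases in PMM (two-sided exact permutation test, p = 0.7, where 3 against 3 allow no p under 0.1). Over the LDM libraries the summed FPKM of all members came to 531 ± 73.2 (SD, n = 3), and over the PMM libraries to 651 ± 112 (exact permutation p = 0.3). Most of these sums came from the single locus MSTRG.9573, and without it they were 219 ± 36.2 and 238 ± 24.9 (exact permutation p = 0.6). The muscle markers fixed for a check of the tissue were not in this table of noncoding transcripts. Of the fibre, adipocyte, endothelial and erythroid genes none matched a row, PDGFRB (a pericyte receptor) matched 1 row and SLA-11 (a pig class I antigen) matched 4, and none of these was a member. No row matched a list of 29 names for muscle either, which held lncRNAs such as H19 and MALAT1 beside microRNA and coding genes. Members carry no gene name, so no listed name could have matched a member.

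Members were detected far more often than unspliced intergenic transcripts and less often than spliced ones that stand alone. In all 6 libraries 86 of the 118 members (72.9%) were above 0, against 14.6% of 2888 unspliced intergenic transcripts and 88.4% of 190 spliced intergenic transcripts of single-row loci. The median of the members' mean FPKM was 1.21, and it was 1.15 for the spliced single transcripts and 0.415 for the unspliced ones. These counts are given as a description with no test. A member shares its reads with the other isoforms of its locus, which the other groups do not. That sharing is visible in the values, since the product of coverage and length was within 0.02 bases of a whole number in 82.8% of all values but in 12.9% of the members' values. The FPKM of a member is therefore the authors' estimate of how shared reads divide among isoforms, and an exact 0 can be the result of that division as well as of absent RNA.

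For the levels, 102 members (86.4%, against 42.5% of all rows) were above 0 in all 3 libraries of a muscle and were tested. For the shares, 48 loci had a summed FPKM of at least 0.1 in every library. Left out were MSTRG.6345, listed at 1.67 FPKM in LDM replicate 2 and 1.64 FPKM in PMM replicate 2 and at 0 elsewhere, MSTRG.13389, listed at 0 in both libraries of number 3, and MSTRG.8397, which did not pass 0.0469 FPKM in any library. In MSTRG.6345 the unspliced isoform carried all of the sum in LDM replicate 2, and the spliced isoform carried 87.3% in PMM replicate 2, with 1 library a muscle. Across the 48 loci, the least-read library of a locus held an estimated 157 reads in the median, and 9 loci fell under 50 estimated reads in some library, the lowest being MSTRG.5148 with 5.

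MSTRG.9573 on chromosome 2 (positions 5943087 to 5945430, minus strand) was by far the highest locus. Its summed FPKM was 431, 270 and 237 in LDM and 567, 314 and 358 in PMM. The muscles overlapped, at 313 ± 104 against 413 ± 135 FPKM, a log2 difference (LDM minus PMM, on log2(FPKM + 1)) of -0.40 with a standard error of 0.42 (limma, adjusted p = 0.777). Its 2 isoforms share both ends, and the 2-exon isoform MSTRG.9573.1 held 91.4%, 93.2% and 92.7% of the sum in LDM and 94.6%, 90.3% and 91.6% in PMM. The share of the 3-exon isoform MSTRG.9573.2 was 7.55% ± 0.916 in LDM and 7.82% ± 2.20 in PMM. The summed FPKM thus differed more than 2-fold between libraries while the division between the isoforms stayed within a few points.

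The other loci with a mean summed FPKM of at least 10 were MSTRG.8710, MSTRG.11458, MSTRG.5305, MSTRG.18919 and MSTRG.2240. MSTRG.8710 on chromosome 17 was the steadiest of them, at 32.5, 39.9 and 41.5 FPKM in LDM and 33.7, 38.5 and 37.3 FPKM in PMM. Both of its isoforms run from 44757072 to 44762215, the one without an intron and the other with a single intron removed. The spliced form made up 17.2%, 36.6% and 25.5% of the sum in LDM and 27.2%, 33.1% and 30.8% in PMM, or 26.4% ± 9.70 against 30.4% ± 2.95. The lowest and the highest of these shares were both LDM libraries. MSTRG.2240 on chromosome 10 has isoforms of 2 and 3 exons with the same ends, and the 2-exon isoform made up 84.7%, 96.0% and 59.2% in LDM and 78.6%, 96.2% and 77.2% in PMM. Replicate 2 had the highest share in both muscles.

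**Figure D1:**
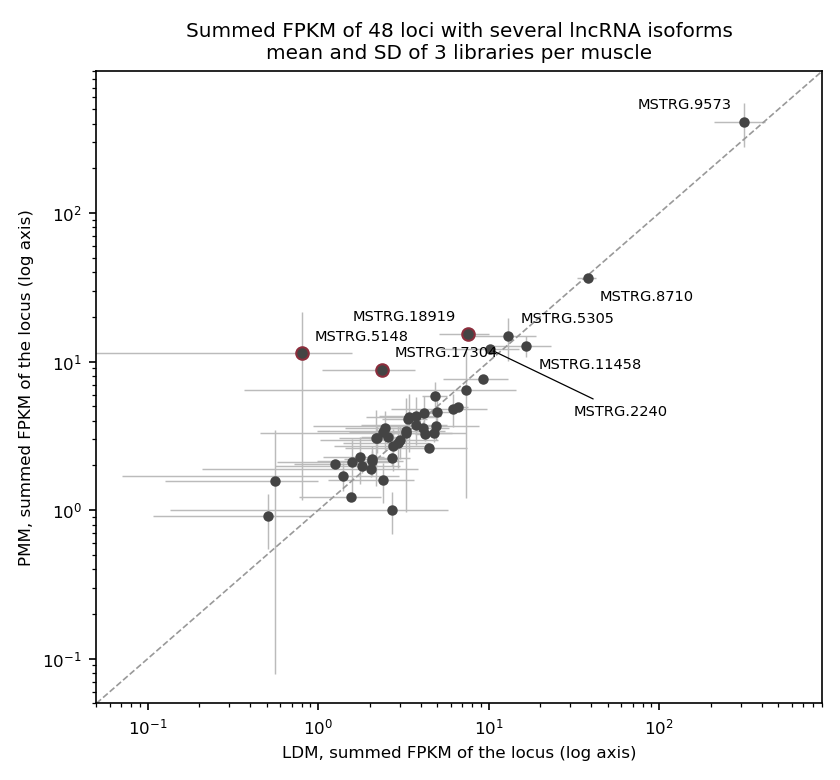
Mean summed FPKM of each of the 48 loci in LDM (x axis, log scale) and PMM (y axis, log scale), with bars of 1 SD over 3 libraries that are cut short of 0 where the SD reaches the mean, and with the line of equality dashed. The 3 loci with a red rim (MSTRG.17304, MSTRG.5148 and MSTRG.18919) have an unadjusted limma p under 0.05 and lie above the line, and MSTRG.9573 stands alone at 313 and 413 FPKM.

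Whether a level passed an adjusted p of 0.05 depended on the replicate block and on other settings, given at the end. In the main limma fit, without the block, 0 of 48 loci passed, against 0.122% of all gene IDs tested. Of the members 0 of 102 passed, against 0.174% of all transcripts tested. At an unadjusted p under 0.05, 3 loci (background 4.43% in this direction) and 10 members (background 4.71%) were higher in PMM, and 0 loci (background 3.16%) and 0 members (background 3.14%) were higher in LDM. The 3 loci are 6.25% of those tested and the 10 members are 9.80%, and the 10 belong to 5 loci, so they are not independent cases. Of these members 6 also had an absolute log2 difference of at least 1, all with the higher level in PMM (background 2.44%), and so did 2 of the loci (background 2.31%). MSTRG.18919.2, which is among the 10 and the 6, passed the filter only through PMM. With the replicate number as a block, limma called 3 loci (background 2.61%), all higher in PMM (background 1.58%), and 7 members (background 2.79%), 6 higher in PMM (background 1.69%) and MSTRG.11458.3 higher in LDM (background 1.1%). Of the 7, MSTRG.18919.2 and MSTRG.11458.3 were tested only because the muscle in which they were higher passed the filter. Their calls are therefore not independent of the filter.

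Libraries of the muscles did not overlap for 10 members with the higher level in PMM (background 9.01% of transcripts) and for 3 with the higher level in LDM (background 5.87%). Of the 10, MSTRG.390.4 passed the filter only through PMM, so its place in the count is not independent of the filter. For the summed FPKM these numbers were 3 loci (background 9.05%) and 2 loci (background 6.01%), close to the background. By sign alone 32 of 48 loci were higher in PMM (background 51%), and the median log2 difference was -0.11 over the loci and -0.01 over all gene IDs tested. With median-of-ratios scaling of the libraries, which moved the median of all transcripts by 0.10 towards LDM, only 20 of the 48 loci were higher in PMM (41.8% of all gene IDs), so the direction of the loci as a group turns with the scaling. The differences described next belong to single loci.

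MSTRG.17304 on chromosome 7 (109518099 to 109548641, plus strand) had the smallest p of the 48 loci. Its summed FPKM was 1.03, 3.65 and 2.40 in LDM and 9.07, 8.82 and 8.54 in PMM. Every PMM library was above every LDM library, and the PMM libraries were nearly equal. The means were 2.36 ± 1.31 and 8.81 ± 0.263 FPKM, a log2 difference of -1.63 with a standard error of 0.36 (limma, adjusted p = 0.0602). With the replicate block the adjusted p was 3.08e-05. That fit used the residual SD of the trend, 0.378 on the log2 scale, in place of the 0.445 of this locus. Leaving out each library in turn gave log2 differences from -1.90 to -1.30 and adjusted p from 0.0695 to 0.566, so the direction stayed and no call was made.

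In MSTRG.17304 every isoform was higher in all PMM than in all LDM libraries, but only 1 of the 4 passed under any setting. MSTRG.17304.5, a 3-exon isoform of 3742 bases at the 3′ side of the locus, was at 0.231, 1.59 and 0.682 FPKM in LDM and 4.36, 4.92 and 3.61 FPKM in PMM, a log2 difference of -1.59 with a standard error of 0.38 (limma, adjusted p = 0.108, with the replicate block adjusted p = 4.54e-04). The 6-exon isoform MSTRG.17304.2, which runs the length of the locus, was at 0.246, 0.608 and 0.772 FPKM in LDM, against 1.26, 1.35 and 1.74 FPKM in PMM. MSTRG.17304.3 was at 0.192, 0.727 and 0.367 FPKM in LDM, against 1.23, 1.27 and 2.34 FPKM in PMM. MSTRG.17304.4 had 0.357, 0.731 and 0.576 FPKM in LDM and 2.22, 1.27 and 0.847 FPKM in PMM, with the lowest PMM library just above the highest LDM library. By limma the adjusted p of these 3 isoforms were 0.646, 0.601 and 0.667, and with the replicate block 0.426, 0.274 and 0.481. The isoforms did not keep their shares in every library, but no share differed by test. MSTRG.17304.5 held 22.5%, 43.4% and 28.5% of the sum in LDM and 48%, 55.8% and 42.2% in PMM, and 1 PMM library lay under the highest LDM library (limma on shares, adjusted p = 0.797).

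MSTRG.5148 on chromosome 13 (126226497 to 126263887, minus strand) had the largest log2 difference of the 3 loci, but within PMM the libraries disagreed. Its summed FPKM was 0.202, 0.531 and 1.69 in LDM and 0.492, 20.7 and 12.9 in PMM. PMM replicate 1 lay among the LDM libraries, and PMM replicates 2 and 3 lay far above all of these. The log2 difference was -2.17 with a standard error of 0.62 (limma, adjusted p = 0.273). With the replicate block the adjusted p was 1.41e-08, but that fit replaced the residual SD of this locus, 1.25 on the log2 scale, by the 0.40 that the trend gives at its level. Without PMM replicate 1 the log2 difference was -3.35 (adjusted p = 1.86e-04), and without PMM replicate 2 it was -1.42 (adjusted p = 0.758).

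Both isoforms of MSTRG.5148, of 2 and 3 exons with the same ends, followed that split. MSTRG.5148.1 was at 0.154, 0.239 and 1.31 FPKM in LDM, against 0.0544, 12.9 and 6.96 FPKM in PMM. MSTRG.5148.2 was at 0.0484, 0.292 and 0.380 FPKM in LDM, against 0.437, 7.77 and 5.96 FPKM in PMM, the highest LDM value lying under the lowest PMM value. The log2 differences were -1.72 (adjusted p = 0.527) and -1.85 (adjusted p = 0.292) by limma, and with the replicate block, which put 0.423 and 0.433 in place of residual SDs of 1.28 and 0.868, the adjusted p were 1.37e-04 and 4.40e-05. The 3-exon isoform held 23.9%, 55.0% and 22.5% of the sum in LDM and 88.9%, 37.5% and 46.1% in PMM, values that overlap. The estimated reads behind the sum ran from 5 to 504 between libraries, so the shares of the low libraries rest on few reads.

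MSTRG.18919 on chromosome 9 (110172066 to 110225220, minus strand), the largest family, gave 4.78, 9.41 and 8.45 FPKM in LDM and 14.6, 16.4 and 15.2 FPKM in PMM. The muscles did not overlap, and the means were 7.55 ± 2.44 and 15.4 ± 0.898 FPKM. The log2 difference was -0.98 with a standard error of 0.34 (limma, adjusted p = 0.431), and with the replicate block the adjusted p was 0.0360.

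Its 7 isoforms fall into a 3′ group, a 5′ group and a form that joins both. In the 3′ group MSTRG.18919.1, of 11292 bases, was at 0.590, 1.45 and 0.586 FPKM in LDM, against 2.63, 2.27 and 2.21 FPKM in PMM. MSTRG.18919.3 was at 0.441, 1.18 and 0.550 FPKM in LDM, against 2.39, 2.17 and 2.23 FPKM in PMM. Both were higher in every PMM library than in any LDM library, and they were also the 2 isoforms whose PMM values lay closest together. MSTRG.18919.2, which spans the locus in 3 exons, was listed at 0 in LDM replicates 1 and 2, at 6.43 FPKM in LDM replicate 3, and at 2.82, 4.89 and 3.50 FPKM in PMM. A single LDM library therefore held the highest value of all. The isoforms of the 5′ group were mixed. MSTRG.18919.5 was at 1.25, 4.13 and 0.373 FPKM in LDM, against 5.27, 3.58 and 4.48 FPKM in PMM, overlapping between the muscles, and MSTRG.18919.6 and MSTRG.18919.7 had log2 differences of -0.21 and -0.25. MSTRG.18919.4 was above 0 in 2 libraries and was not tested. For MSTRG.18919.2 and MSTRG.18919.5 the adjusted p was 0.0165 and 0.0387 with the replicate block, and 0.601 and 0.538 without it. Here too that fit set aside larger residual SDs, 1.23 and 0.798 on the log2 scale, for the 0.416 and 0.404 of the trend.

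**Figure D2:**
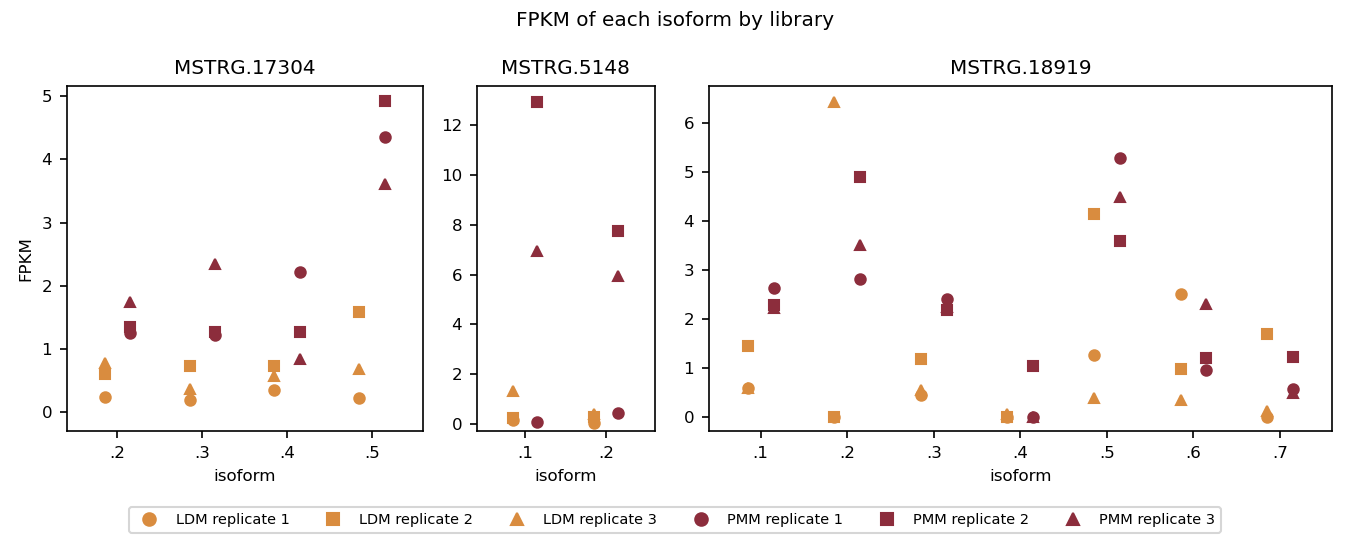
FPKM (y axis, linear, with its own scale in each panel) of each isoform (x axis) of the 3 loci with the smallest unadjusted p, 1 point a library, with LDM in orange, PMM in dark red and the replicate number given by the marker. All 4 isoforms of MSTRG.17304 are higher in every PMM library, MSTRG.5148 is high in PMM replicates 2 and 3 alone, and in MSTRG.18919 the isoform MSTRG.18919.2 is highest in LDM replicate 3.

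In MSTRG.5305 on chromosome 13 (143406519 to 143408447, minus strand) only 1 of the isoforms had a small p. Both have 2 exons and the same ends and differ by 33 bases in length (1542 and 1575). The longer isoform MSTRG.5305.2 was at 3.64, 3.14 and 2.64 FPKM in LDM, against 8.51, 7.38 and 6.61 FPKM in PMM. Values within a muscle were close, and the lowest PMM library was above the highest LDM library. The log2 difference was -1.04 with a standard error of 0.33 (limma, adjusted p = 0.420, with the replicate block adjusted p = 0.0387). The shorter isoform MSTRG.5305.1 was at 2.47, 12.2 and 14.7 FPKM in LDM, against 0.868, 10.8 and 10.5 FPKM in PMM, so it separated number 1 from the others in both muscles. The summed FPKM of the locus, 12.9 ± 5.97 in LDM and 14.9 ± 4.80 in PMM, overlapped (log2 difference -0.25, adjusted p = 0.842).

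A higher level in LDM was seen for fewer members. This depends on the scaling, since with median-of-ratios scaling 50 of 102 members were higher in PMM by sign (background 42.1%). MSTRG.11458.3 on chromosome 3, the only member called higher in LDM with the replicate block (adjusted p = 0.0463), was at 3.15, 2.46 and 15.2 FPKM in LDM, against 2.40, 0 and 6.80 FPKM in PMM. Its values overlapped widely, its residual SD of 0.533 was replaced by 0.396 in that fit, and without the block the adjusted p was 0.647. It passed the filter only through LDM. MSTRG.11569.1 was at 2.52, 3.07 and 2.81 FPKM in LDM, against 1.70, 1.60 and 1.51 FPKM in PMM, with no overlap, a log2 difference of 0.54 and an adjusted p of 0.676. MSTRG.6088.3 was at 0.954, 0.345 and 1.0 FPKM in LDM, against 0.0663, 0.215 and 0.180 FPKM in PMM, also without overlap (log2 difference 0.59, adjusted p = 0.667). The third was MSTRG.14704.1, at 6.23, 7.26 and 5.40 FPKM in LDM, against 4.82, 4.66 and 4.61 FPKM in PMM. Its log2 difference was 0.35 (limma, adjusted p = 0.754). The paper lists qPCR primers for LncRNA14704, and no source says whether that name means this locus. Log2(FPKM + 1) understates the change of values as low as those of MSTRG.11569.1 and MSTRG.6088.3.

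The shares were compared next, to see whether the muscles used different isoforms of the same locus. Since the shares of a locus sum to 100%, a locus with 2 rows gives 1 test, and 76 shares of the 48 loci were tested among 105 in the table. By limma on the arcsine square root of the share, 0 of 76 passed an adjusted p of 0.05 (background 0%), and the smallest adjusted p was 0.308. At an unadjusted p under 0.05 there were 2 of 76, or MSTRG.390.4 and MSTRG.6088.1, against 2.86% of all shares tested. Shares whose LDM and PMM libraries did not overlap numbered 8 of 76, or 10.5%, and the background was 10.5%. The median absolute difference of the muscle means was 10.1 percentage points, less than the median SD within LDM (14.7 points) or PMM (14.1 points). In 61 of the 76 the difference was under the larger of these SDs.

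**Figure D3:**
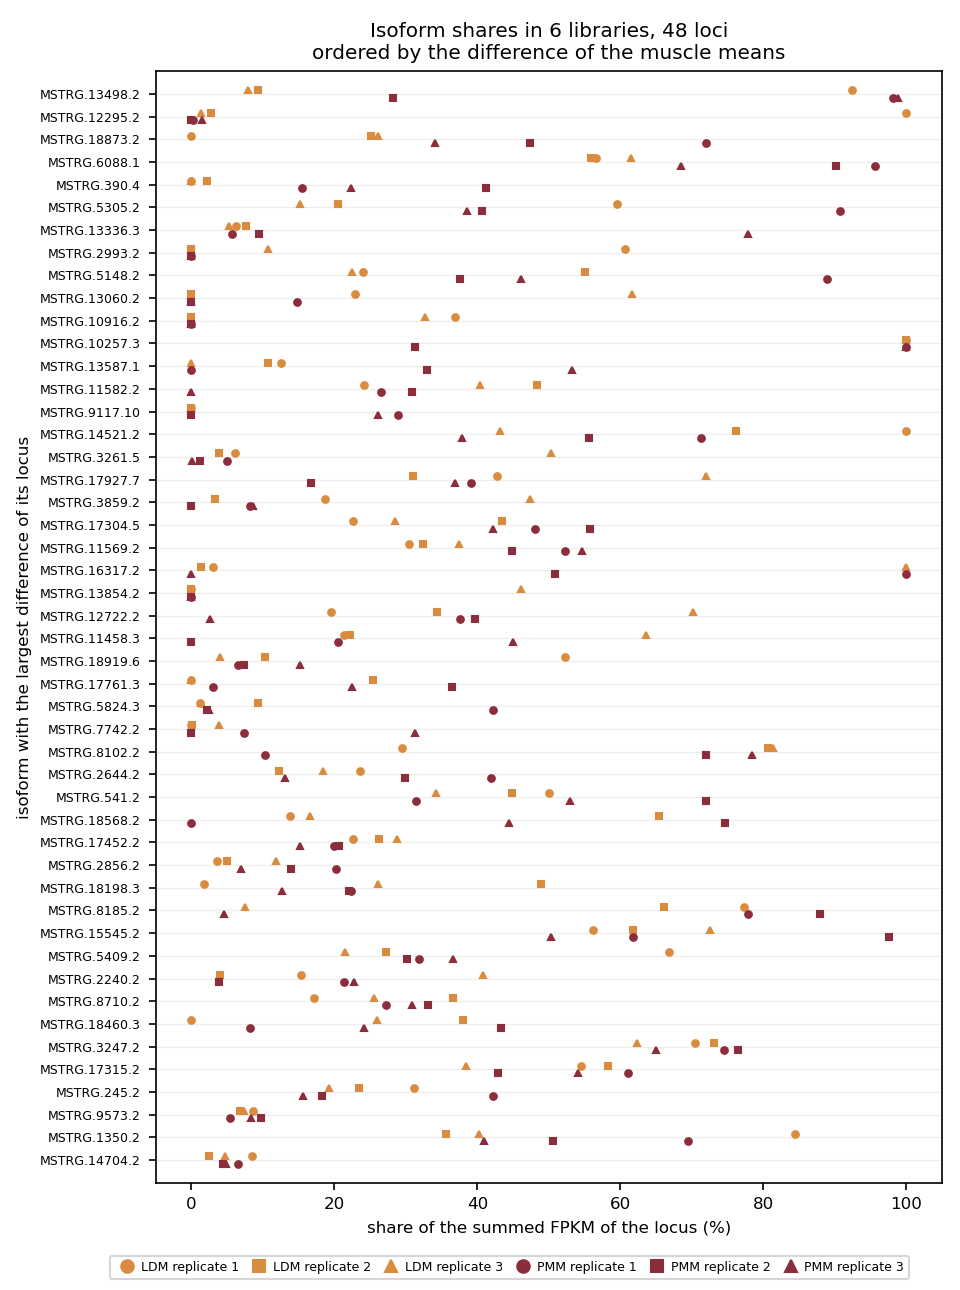
Share of the summed FPKM of its locus (x axis, percent) in each of the 6 libraries for the isoform with the largest difference in each of 48 loci (y axis), ordered by the size of the difference between the muscle means, with LDM in orange, PMM in dark red and the replicate number given by the marker. In most loci the libraries of a muscle spread as widely as the muscles differ, and at the top MSTRG.13498.2 has libraries near 0% and near 100% in LDM.

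MSTRG.390.4 on chromosome 1 (62835599 to 62858205, plus strand) gave the smallest p of the members' shares. Of the 3 isoforms of its locus it has the 3′ end closest to the start. Its share was 0%, 2.14% and 0% in LDM and 15.4%, 41.2% and 22.4% in PMM, a difference of -25.6 points (limma, adjusted p = 0.308). It was at or near 0 in every LDM library and clearly above 0 in every PMM library. In FPKM it was at 0, 0.068 and 0 in LDM and at 0.305, 0.534 and 0.415 in PMM. The LDM libraries at 0% were those with the lowest sums of the locus, 0.196 and 0.833 FPKM, and LDM replicate 2, which gave 2.14%, had the highest, 3.18 FPKM. The least-read library held an estimated 30.8 reads of this locus, and the part of that depth in the result was not tested.

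In MSTRG.6088 on chromosome 14 (50911111 to 50921801, plus strand) the long 2-exon isoform MSTRG.6088.1 held 56.5%, 55.8% and 61.5% in LDM and 95.7%, 90.2% and 68.5% in PMM (difference -26.8 points, limma, adjusted p = 0.797). The 3-exon isoform MSTRG.6088.3 held 23.6%, 7.03% and 27.8% in LDM and 1.22%, 4.15% and 6.24% in PMM. Both shares were free of overlap in opposite directions, and the summed FPKM was alike, 4.19 ± 0.664 in LDM and 4.50 ± 1.40 in PMM. The third isoform, MSTRG.6088.2, overlapped at 22.6% ± 13.4 and 11.3% ± 12.1. This locus was read deeply, with 1253 to 2468 estimated reads a library.

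The remaining shares without overlap were of 5 loci. In MSTRG.11569, where both isoforms have 2 exons and the same ends and differ by 31 bases in length (457 and 488), the shorter isoform held 69.6%, 67.6% and 62.6% in LDM and 47.8%, 55.2% and 45.3% in PMM, a difference of 17.2 points (adjusted p = 0.797). The libraries of each muscle lay within 10 points of each other here, closer than in most loci. In MSTRG.18873 the isoform MSTRG.18873.1 held 100%, 74.8% and 73.9% in LDM and 28.0%, 52.6% and 65.9% in PMM (difference 34.0 points, adjusted p = 0.797). In MSTRG.17452, the shortest locus, the unspliced isoform held 77.3%, 73.8% and 71.2% in LDM and 80.1%, 79.4% and 84.9% in PMM, a gap of only 7.32 points between the means. MSTRG.13587.3 held 19%, 42.3% and 20.3% in LDM and 8.47%, 14.5% and 4.33% in PMM. MSTRG.18919.3 held 9.22%, 12.5% and 6.50% in LDM and 16.4%, 13.2% and 14.7% in PMM. By limma no adjusted p of these 5 shares was under 0.797. MSTRG.390, MSTRG.17452 and MSTRG.18873 were picked for description after their values were seen.

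**Figure D4:**
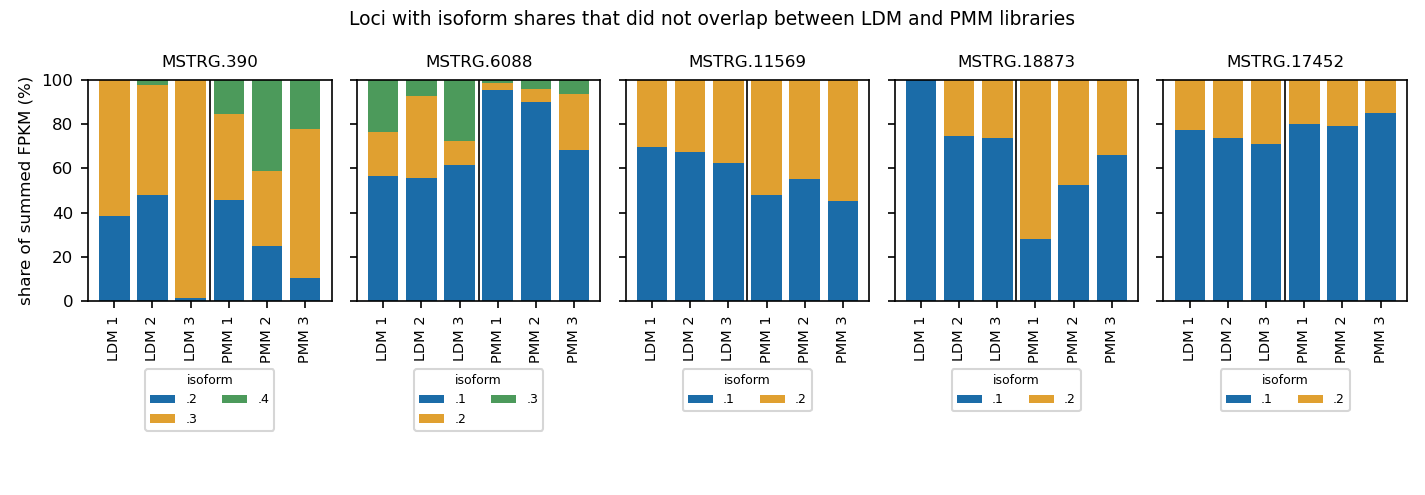
Stacked shares (y axis, percent of the summed FPKM of the locus) of the isoforms of 5 loci in each library (x axis, LDM replicates left and PMM replicates right of the line), with a color for each isoform. In MSTRG.390 the isoform MSTRG.390.4 is at most 2.14% in LDM and at least 15.4% in PMM, and in MSTRG.11569 the isoform MSTRG.11569.1 is at least 62.6% in LDM and at most 55.2% in PMM.

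In other loci with wide gaps between the muscle means, single libraries switched almost completely. In MSTRG.13498 on chromosome 4, whose isoforms share the 3′ end, MSTRG.13498.2 held 92.4%, 9.33% and 7.86% in LDM and 98.2%, 28.2% and 98.8% in PMM. Both muscles thus held libraries near 100% and libraries far below, and the difference of -38.5 points had an adjusted p of 0.797. The summed FPKM of this locus was 0.770, 1.82 and 1.16 in LDM and 1.93, 1.99 and 2.19 in PMM, without overlap. Its log2 difference was -0.46 (limma, adjusted p = 0.745). MSTRG.13498.2 was at 0.712, 0.170 and 0.0914 FPKM in LDM, against 1.89, 0.562 and 2.17 FPKM in PMM. These values overlap (log2 difference -0.90, limma, adjusted p = 0.601). In MSTRG.12295 on chromosome 3 the 4-exon isoform held 100% in LDM replicate 1 and 2.71%, 1.28%, 0.267%, 0% and 1.48% in the other 5 libraries. In MSTRG.13336 the isoform MSTRG.13336.3 held 77.9% in PMM replicate 3 and 5.24% to 9.40% in the other 5. In each of these 2 loci a single library made the difference.

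Several loci held an isoform that was listed at 0 in at least 3 of the 6 libraries. The short isoform MSTRG.2993.2 held 60.7%, 0% and 10.7% in LDM and 0% in all of PMM. Similarly, MSTRG.10916.2 held 36.9%, 0% and 32.6% in LDM and 0% in all of PMM (adjusted p = 0.797). MSTRG.13854.2, the shortest member, was present in LDM replicate 3 alone, at 46.1% of its locus. MSTRG.13060.2, the spliced form beside an unspliced one, held 22.9%, 0% and 61.6% in LDM and 14.8%, 0% and 0% in PMM. In the opposite direction MSTRG.9117.10 was listed at 0 in all of LDM and held 28.9%, 0% and 26.1% in PMM (adjusted p = 0.797). Under the alternative settings the limma adjusted p of this share ran from 0.0514 to 0.907, so it depended on the setting and never passed 0.05. In MSTRG.10257 the member MSTRG.10257.3 made up all of the sum except in PMM replicate 2, where the row that shares a junction with CCL25 held 68.7%. None of these isoforms was present in all libraries of the one muscle and listed at 0 in all of the other.

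The number of isoforms in use was alike. As a measure of it the exponential of the Shannon entropy of the shares was used, which is 1 where a single isoform holds everything and 2 where a pair is equal. Over 48 loci it had a median of 1.77 ± 0.0312 in the LDM libraries and of 1.80 ± 0.10 in the PMM libraries (SD over 3 libraries, two-sided exact permutation test, p = 0.6). The median share of the leading isoform was 74.4% ± 1.66 in LDM and 73.0% ± 4.76 in PMM (exact permutation p = 0.7). The difference in effective number, -0.0328, was smaller in size than the SD of PMM and slightly larger than that of LDM. That in leading share, 1.35 points, was under both SDs. Both differences changed sign under other settings.

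In 19 of the 48 loci the same isoform led in all 6 libraries, among them MSTRG.9573, MSTRG.8710, MSTRG.2240, MSTRG.6088 and MSTRG.9117. A single leader in all 3 LDM libraries was found in 25 loci, and a single leader in all 3 PMM libraries also in 25. In 0 loci did an isoform lead in all of LDM and another in all of PMM. In 10 loci the isoform that led most often did so in only 3 of the 6 libraries. The leader was not as a rule the most processed form. Of 25 loci with rows of unequal exon number, the highest mean FPKM belonged to a row of the most exons in 8 and of the fewest exons in 17. The longest isoform was the highest in 28 of 48 loci.

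By the muscle means the leader differed in 9 loci, 7 of which reached 0.5 summed FPKM in every library. They were MSTRG.5305, MSTRG.18919, MSTRG.11569, MSTRG.17927, MSTRG.541, MSTRG.16317 and MSTRG.13498. In MSTRG.541 on chromosome 1 the 2-exon isoform held 50.1%, 44.8% and 34.2% in LDM and 31.4%, 71.9% and 52.9% in PMM. In MSTRG.16317 on chromosome 7, the isoform MSTRG.16317.2 held 3.0%, 1.41% and 100% in LDM and 99.9%, 50.8% and 0% in PMM. In MSTRG.17927 on chromosome 8 the isoform MSTRG.17927.7 held 42.8%, 31.0% and 72.0% in LDM and 39.1%, 16.7% and 36.8% in PMM. In all 3 the libraries of each muscle disagreed on the leader, and no adjusted p was under 0.797.

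Libraries of the same muscle were no closer to each other in isoform use than libraries of different muscles. Over the 48 loci the mean absolute difference in share was 20.6 points between libraries of the same muscle (6 pairs, 17.8 to 23.8 points). It was 20.6 points between libraries of different muscle and number (6 pairs, 17.9 to 22.5 points), and 18.6 points between the LDM and PMM libraries of the same number (3 pairs, 13.4 to 21.8 points). The pairs shared the leading isoform in 31.7, 33.2 and 34.7 loci in the mean. These values are a description, since pairs share libraries, and they overlap.

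In 5 loci the leader followed the replicate number: the LDM and PMM libraries of a number had the same leader, which differed between numbers. They were chosen for this pattern after their values were seen, and the labels do not say whether a number marks the same pig. In MSTRG.8102 on chromosome 16, whose isoforms have 3 and 4 exons and the same ends, the 3-exon isoform held 70.6%, 19.3% and 18.6% in LDM and 89.8%, 28.0% and 21.6% in PMM. Number 1 was thus high and numbers 2 and 3 low in both muscles. In MSTRG.8185, also on chromosome 16, the isoform MSTRG.8185.1 held 22.6%, 33.9% and 92.5% in LDM and 22.1%, 12.1% and 95.5% in PMM, with number 3 apart. In MSTRG.18568 on chromosome 9 the 4-exon isoform held 86.1%, 34.6% and 83.4% in LDM and 100%, 25.3% and 55.6% in PMM, with number 2 lowest. The isoform MSTRG.5305.2 described above held 59.6%, 20.5% and 15.2% in LDM and 90.7%, 40.7% and 38.6% in PMM, with number 1 highest. In MSTRG.14521 on chromosome 5 the 2-exon isoform held 0%, 23.9% and 56.8% in LDM and 28.7%, 44.4% and 62.2% in PMM. The numbers ranked alike in both muscles in all of these loci except MSTRG.8185, where numbers 1 and 2 changed places. Over all shares of the members, same-numbered libraries did not deviate together, with correlations of -0.05, 0.19 and -0.03 for numbers 1 to 3.

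**Figure D5:**
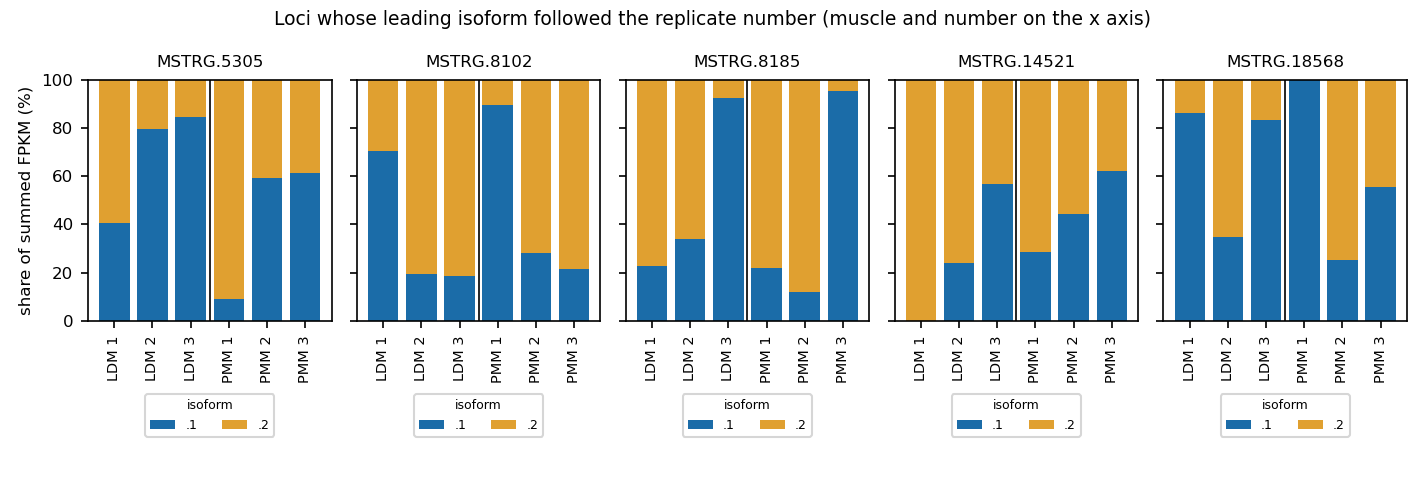
Stacked shares (y axis, percent of the summed FPKM of the locus) of both isoforms of 5 loci in each library (x axis, LDM replicates left and PMM replicates right of the line), with a color for each isoform. The isoform above 50% is the same in the LDM and PMM libraries of each number, as in MSTRG.8102, where MSTRG.8102.1 holds 70.6% and 89.8% in number 1 and 18.6% to 28.0% in the other 4 libraries.

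Families with 3 or 4 rows showed how far isoform use could vary within a muscle. MSTRG.3261 on chromosome 12 has 4 isoforms of 4 exons that share the 5′ end. Its isoform MSTRG.3261.2 held 12.6%, 96.1% and 0.0231% in LDM and 67.8%, 13.2% and 50.8% in PMM. MSTRG.3261.3 held 81.4% in LDM replicate 1 and 85.6% in PMM replicate 2 and was listed at 0 in the other 4 libraries. MSTRG.3261.4 and MSTRG.3261.5 together made up nearly all of LDM replicate 3, at 49.6% and 50.3%. Each LDM library of this locus thus had its own leading isoform. MSTRG.9117 on chromosome 18, the locus with the longest span, was steadier. Its 33086-base isoform MSTRG.9117.5 led in all 6 libraries, with 71.4%, 53.8% and 43.1% in LDM and 40.3%, 51.3% and 30.7% in PMM, and the 13276-base isoform MSTRG.9117.11 held 28.6%, 41.0% and 32.9% in LDM and 29.0%, 47.1% and 17.6% in PMM, the lowest of the 4 isoforms in PMM replicate 3. In MSTRG.11458 on chromosome 3 the leading 4-exon isoform MSTRG.11458.1 was at 5.77, 7.76 and 7.99 FPKM in LDM, against 4.85, 9.16 and 5.98 FPKM in PMM. Its share ran from 33.4% to 70.0% in LDM and from 39.6% to 79.1% in PMM, as the FPKM of the other isoforms varied.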

How the data were processed

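RNA depleted of rRNA from 3 LDM and 3 PMM samples (RNA integrity number over 8) was sequenced by the authors as 150-base paired-end reads and aligned with TopHat. The paper names Cufflinks for assembly, while the IDs begin with MSTRG. The authors kept transcripts of low coding potential by the deposited CPC and CNCI scores (members: at most -1.00 and -0.00041). The authors deposited FPKM and read coverage, an unscaled signal, with the exon number and length of each transcript. Estimated reads are coverage times length divided by 150. Reads and a genome were not used, and no sequence is printed.

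A share is the FPKM of an isoform divided by the summed FPKM of all rows of its gene ID. Shares were tested as arcsine square roots in loci with a sum of at least 0.1 FPKM in all 6 libraries. Levels of isoforms and of loci were tested as log2(FPKM + 1), with an intensity trend, where all 3 libraries of a muscle were above 0. All fits were limma 3.58.1 in R 4.3.3, two-sided, over the whole table, with Benjamini-Hochberg adjustment over all 105 shares, 1721 transcripts or 1646 gene IDs. Differences are LDM minus PMM. Single values of a library were compared by exact permutation tests. Other steps ran in Python 3.11.15 (numpy 2.4.6, pandas 2.3.3, matplotlib 3.10.9, scipy 1.17.1).

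Described loci are those with a called member, the 10 largest share differences and up to 8 changes of leader by muscle mean (both at 0.5 summed FPKM or more in all libraries), the 6 highest levels, the 5 with the most rows and the 5 with the smallest p for the summed FPKM. Members and lists were chosen with earlier results of these data known. Alternatives were other pseudocounts, filters, scalings and share scales, leaving out each library, and the replicate number as a block. Deviations of same-numbered libraries from the muscle means correlated at 0.239, 0.123 and 0.168 over the log2 FPKM, and other pairs at -0.179 to 0.0423. Such deviations cancel out within a muscle, so positive values for same-numbered pairs make the others negative on balance. The contrast between them is thus no separate support for the block. No source says that a number marks a pig, and the pairing comes from these same data alone. For levels the fit with the replicate block is given beside the one without it. Unless the block is named, values come from the fit without it. Shares were not treated as paired.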

Additional observations from a re-analysis of the deposited data

How the results depend on the processing

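Depth and replicate number limit these results: 3 libraries a muscle allow no exact p under 0.1, and 9 loci had under 50 estimated reads in a library. The count of members with a share at an unadjusted p under 0.05 was 2, and became 4 on untransformed shares and 1 in loci of at least 0.5 summed FPKM. Members with a level at an adjusted p under 0.05 went from 0 to 1 with a pseudocount of 0.01, 3 without the filter and 7 with the replicate block. The corresponding numbers for loci went from 0 to 1, 2 and 3. Members past the unadjusted p and an absolute log2 difference of 1 went from 6 to 3 in transcripts of at least 0.5 FPKM in a muscle and to 2 with median-of-ratios scaling, and loci from 2 to 1 with the former. The other alternatives with all libraries gave 6 to 9 members (9 with a pseudocount of 0.1) and 2 to 3 loci. The difference in effective number, -0.0328, became 0.0219 in loci of at least 0.5 summed FPKM and 0.00544 on shares of bases. The difference in leading share, 1.35 points, became -0.388 points at that minimum. The cause of these changes was not tested.

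Leaving out each library in turn gave 2 to 10 members with a share at an unadjusted p under 0.05 (10 with LDM replicate 2 left out, 5 with LDM replicate 3 and 4 with PMM replicate 2), 0 to 2 members and 0 to 1 loci with a level at an adjusted p under 0.05 (the highest without PMM replicate 1), and 4 to 10 such members (10 without LDM replicate 2) and 2 to 3 such loci by the unadjusted p and size. The difference in effective number ran from -0.0895 to 0.00513 and that in leading share from -0.691 to 3.96 points, each with its sign turned without PMM replicate 3. MSTRG.5148 passed an adjusted p of 0.05 in 3 of 12 alternatives (without the filter, without PMM replicate 1 and with the block), MSTRG.17304 in 3 of 13 and MSTRG.18919 in 1 of 13. Of the 24 shares followed, 7 turned direction under an alternative, and 0 passed an adjusted p of 0.05. Another 2 had a difference of 0 without 1 library (MSTRG.10257.3 without PMM replicate 2, MSTRG.13854.1 without LDM replicate 3). MSTRG.10257.3 could not be tested on class u rows alone, nor MSTRG.5148.1 in loci of at least 0.5 summed FPKM. The differences that turned did so without 1 library, and ran from -0.0850 to 25.5 points for MSTRG.11458.3, -9.40 to 48 for MSTRG.16317.1, -2.54 to 21.6 for MSTRG.18919.6, -12.1 to 6.31 for MSTRG.2240.1, -19.4 to 0.892 for MSTRG.541.2, -0.657 to 9.01 for MSTRG.8710.1 and -1.49 to 0.652 for MSTRG.9573.2. With the replicate block no share passed an adjusted p of 0.05, and the exact sign-flip p were 0.5 for the effective number and 0.75 for the leading share, where 3 pairs allow no p under 0.25.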
